A study of Mus musculus with 10 samples.

Results

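The genes of the matrix metalloproteases, the Adamts proteases with their Adamts-like relatives, and the tissue inhibitors of metalloproteases were examined for binding of RBPJ in cultured mouse brain pericytes. Members were the protein-coding genes of GENCODE M21 on chromosomes 1 to 19 whose symbols begin with Mmp and a digit or with Adamts, or are Timp followed by a single digit. This gave 49 genes of 20807, namely 22 Mmp, 19 Adamts, 5 Adamtsl and 3 Timp genes. Timp1 lies on chromosome X and Mmp1a is not annotated as protein-coding, so neither was a member. Peaks of chromatin immunoprecipitation and sequencing (ChIP-seq) were assigned to a gene when their centre lay in the gene body or in its regulatory domain. The domain held a basal part, 5 kb upstream and 1 kb downstream of the gene's 5′ end (here also its TSS), and was extended on each side to the next basal part, by at most 1 Mb.

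RD1 cells, labelled as brain pericytes, were kept without treatment in pericyte medium on dishes coated with collagen I. Chromatin was precipitated with antibodies to RBPJ, H3K4me1, H3K4me3 or histone H3, beside input chromatin, which made 10 samples in 5 groups of 2 replicates. Only the RBPJ group, made with the Cell Signaling antibody, was used here, so 8 samples were not analysed here. Per the study's methods, its cultured pericytes were primary cells from brains of young adult mice with both Rbpj alleles floxed (Rbpj lox/lox), used after repeated passage, and the labels name no recombination of the allele. All samples came from RD1 cells, with no other condition to compare, and peak positions carry no transcript level by which the pericyte label could be checked.

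The peaks deposited for replicate 1 and replicate 2 did not differ in any byte and were counted as 1 list of 11094 peaks. The list gives the start and end of each peak and no height, score or read count, so the depth is unknown and no spread between replicates could be calculated. A gene without a peak in such a list cannot be read as unbound. Intervals given below are 95% exact (Clopper-Pearson) binomial intervals and cover counting error only. They take genes, or peaks, as independent, which neighbouring genes in the same stretch without peaks are not, so they may be too narrow. No test was made of the members against other genes, and the share of all genes or of all peaks is given beside the main counts.

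RBPJ is the DNA-binding factor of the Notch pathway. It recruits repressors in the absence of Notch signals and forms an activating complex with the intracellular part of Notch after a ligand is bound, and its preferred sites contain TGGGAA. Metalloproteases of the Mmp and Adamts families are zinc enzymes that cut collagens, proteoglycans and other matrix proteins, while Adamts-like proteins lack the protease domain and bind matrix, and Timps inhibit the enzymes. Pericytes share a basement membrane with the endothelium of brain capillaries, and its upkeep depends on the balance of such enzymes and inhibitors.

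Sequences below are from the plus strand of GRCm38, with each TGGGAA, or TTCCCA where the site is on the minus strand, in capitals. They were taken from peaks that lie in the basal part or the gene body of a member, whole where the peak was at most 300 bp wide and otherwise as the 100 bp window around a site. A peak of Timp4 and another of Adamtsl4 were added after their values were seen, because they hold the closest pairs of sites. The first set is from the Adamts genes. Its windows for Adamts2, Adamts4 and Adamts5 hold the closest sites of their peaks and lie 396, 402 and 970 bp from the peak centre. Other neighbouring sites in these peaks are up to 1045, 1359 and 702 bases apart. Adamts9 has a narrow peak with 1 site.
Adamts2, intron 3, chr11:50674616-50674715: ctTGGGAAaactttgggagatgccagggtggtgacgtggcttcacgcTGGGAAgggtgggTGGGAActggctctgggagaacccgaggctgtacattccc
Adamts4, upstream, chr1:171248128-171248227: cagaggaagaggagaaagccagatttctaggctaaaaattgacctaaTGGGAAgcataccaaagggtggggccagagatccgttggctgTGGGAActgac
Adamts5, intron 1, chr16:85898767-85898866: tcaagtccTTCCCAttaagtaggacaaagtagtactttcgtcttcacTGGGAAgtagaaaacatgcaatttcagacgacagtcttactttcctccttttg
Adamts9, intron 26, whole peak, chr6:92854919-92855137: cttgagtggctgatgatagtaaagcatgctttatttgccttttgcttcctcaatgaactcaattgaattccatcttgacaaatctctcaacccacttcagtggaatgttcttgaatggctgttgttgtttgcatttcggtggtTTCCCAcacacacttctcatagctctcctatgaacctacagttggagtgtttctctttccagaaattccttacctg

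The next set is from the Adamts-like genes. Bases of this set soft-masked as repeats made up 75% of the Adamtsl4 window nearer to the gene and 0% of the other Adamtsl4 window and of the Adamtsl5 window.
Adamtsl4, upstream, from the peak centred 794 bp upstream, chr3:95688863-95688962: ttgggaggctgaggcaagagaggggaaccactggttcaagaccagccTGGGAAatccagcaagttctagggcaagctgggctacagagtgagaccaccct
Adamtsl4, upstream, from the peak centred 8533 bp upstream, chr3:95696403-95696502: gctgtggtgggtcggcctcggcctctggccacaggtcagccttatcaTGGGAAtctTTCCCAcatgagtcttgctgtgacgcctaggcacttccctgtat
Adamtsl5, upstream, chr10:80348889-80348988: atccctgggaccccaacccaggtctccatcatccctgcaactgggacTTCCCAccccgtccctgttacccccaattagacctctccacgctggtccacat

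From the Mmp genes, the windows show Mmp2 and the membrane-bound proteases Mmp14 and Mmp17, the last as a whole peak.
Mmp2, intron 11, chr8:92847715-92847814: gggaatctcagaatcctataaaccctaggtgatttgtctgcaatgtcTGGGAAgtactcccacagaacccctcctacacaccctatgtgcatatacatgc
Mmp14, upstream, chr14:54426606-54426705: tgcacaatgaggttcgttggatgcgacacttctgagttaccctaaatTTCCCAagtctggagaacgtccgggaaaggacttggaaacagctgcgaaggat
Mmp14, intron 1, chr14:54432135-54432234: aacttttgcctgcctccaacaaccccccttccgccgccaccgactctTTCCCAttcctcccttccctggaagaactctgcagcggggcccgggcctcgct
Mmp17, intron 1, whole peak, chr5:129586024-129586254: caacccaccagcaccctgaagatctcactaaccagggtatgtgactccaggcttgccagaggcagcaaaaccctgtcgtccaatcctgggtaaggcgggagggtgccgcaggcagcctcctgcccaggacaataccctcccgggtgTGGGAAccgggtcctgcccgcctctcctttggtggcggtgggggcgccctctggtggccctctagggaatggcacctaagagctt

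All Timp members are represented, since each had a peak with sites.
Timp2, intron 1, chr11:118354581-118354680: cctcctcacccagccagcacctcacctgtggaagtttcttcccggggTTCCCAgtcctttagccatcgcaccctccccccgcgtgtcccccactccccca
Timp3, intron 2, chr10:86339884-86339983: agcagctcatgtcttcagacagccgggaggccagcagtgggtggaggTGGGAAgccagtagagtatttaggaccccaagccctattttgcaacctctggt
Timp4, 13523 bp downstream of the 5′ end, chr6:115238708-115238807: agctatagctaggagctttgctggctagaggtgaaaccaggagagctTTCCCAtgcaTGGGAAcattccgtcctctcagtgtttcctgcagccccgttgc

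A peak was found for 22 of the 49 members, which is 44.9% (95% interval 30.7 to 59.8%), against 48.4% of all protein-coding genes. This share is near that of all genes, but the members' domains were longer (median 117 kb) than those of all genes (median 86.2 kb). Per Mb of summed domain the members had 2.28 gene-peak pairs and all genes 4.18, while among domains under 200 kb the values were 8.79 and 8.28. Near the 5′ end the shares lay farther apart. A peak centre fell in the basal part of 5 of 49 members, or 10.2% (3.4 to 22.2%), against 28.3% of all genes, and whether this differs from other genes was not tested. When any overlap counted, 8 of 49 members had a basal peak, against 30.2% of all genes. Within 1 kb of the 5′ end the count was 4 of 49, or 8.16% (2.27 to 19.6%), against 26.0% of all genes. Those genes were Adamtsl4, Adamtsl5, Mmp11 and Mmp14. When any overlap of the 1 kb window counted in place of the centre, Adamts1, Adamts5 and Timp2 joined them, making 7 of 49, against 28.4% of all genes. A gene body held a peak in 10 of 49 members, or 20.4% (10.2 to 34.3%), against 26.3% of all genes.

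**Figure D1:**
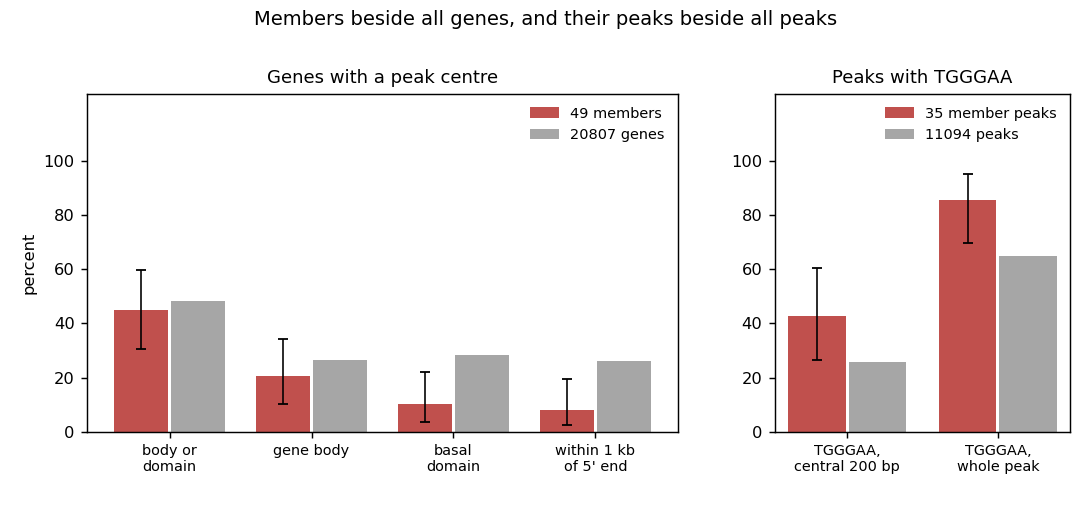
Percent of genes with an RBPJ peak centre in 4 kinds of location (left; 49 members in red, 20807 genes in grey) and percent of peaks with TGGGAA (right; 35 member peaks in red, 11094 peaks in grey). Error bars are 95% exact binomial intervals of the member shares; members stand at 44.9% beside 48.4% for body or domain, and at 10.2% beside 28.3% for the basal part.

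The 22 members were joined to 35 distinct peaks in 36 gene-peak pairs, because Adamts1 and Adamts5 share a peak. Of the pairs, 20 peaks lay downstream of the 5′ end and 16 upstream. Most were at a distance: 4 pairs (11.1%, against 30.0% of the 17979 pairs of all genes) were within 1 kb, 6 (16.7%, against 7.34%) between 1 and 5 kb, 13 (36.1%, against 25.9%) between 5 and 50 kb, and 13 (36.1%, against 33.3%) between 50 and 500 kb. No pair was farther than 500 kb, where 3.33% of all pairs lay. Over all members, with or without an assigned peak, the nearest peak was a median of 72.2 kb from the 5′ end, and the median for all genes was 33.9 kb.

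Assignment by position does not name the gene a site acts on. In 30 of the 36 pairs the peak also lay in the domain of another gene, and in 21 the member had the nearest 5′ end of any protein-coding gene. Pairs in which another coding gene began within 1 kb of the peak centre included the Mmp11 peak (319 bp from Chchd10), the upstream Mmp14 peak (104 bp from Mrpl52) and the Mmp28 peak (568 bp from 1700020L24Rik).

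**Figure D2:**
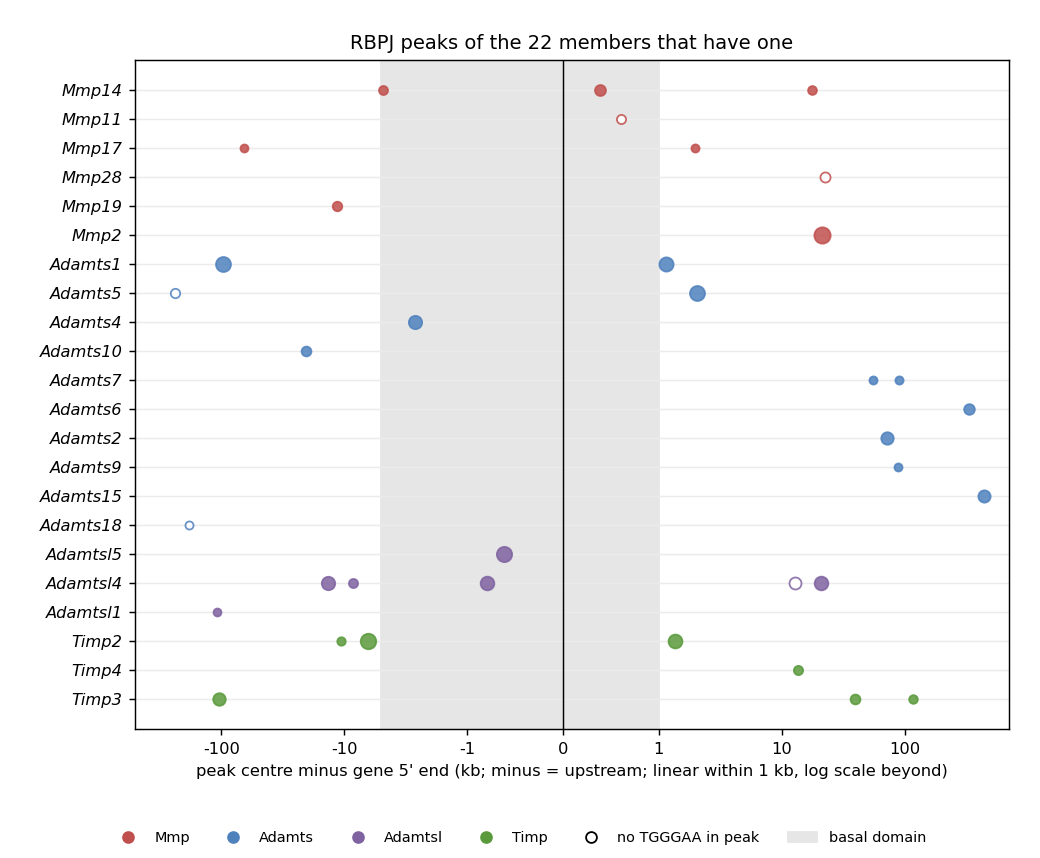
Distance of each RBPJ peak centre from the 5′ end of the 22 members with a peak, in kb, with upstream to the left; the axis is linear within 1 kb and logarithmic beyond. Point area grows with peak width, open points hold no TGGGAA, and the grey band is the basal part; 6 of the 36 points lie in it, for 5 genes.

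Hyalectanases are the Adamts enzymes that cut aggrecan, versican and related proteoglycans, and 5 of 7 had a peak, where 48.4% of all genes did. Adamts1 and Adamts5 are neighbours on chromosome 16 that are read in the same direction. The Adamts1 peak (chr16:85800745-85803192, 2448 bp) covered the 5′ end, with its centre 1145 bp downstream in intron 1, and held 1 TGGGAA. The Adamts5 peak (chr16:85898340-85901233, 2894 bp) had its centre 2042 bp downstream in coding exon 1 and held 3 sites, of which the pair printed above is separated by 33 bases. Both neighbours thus had a wide peak over the start of the gene or just downstream, although neither centre fell within 1 kb of the 5′ end.

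The Adamts5 peak was also the second peak of Adamts1, lying 96673 bp upstream of it at the edge of its domain. Adamts5 had a further peak 236461 bp upstream, 497 bp wide, with no TGGGAA and with 38% of its bases soft-masked. Adamts4, an aggrecanase like Adamts5, had a peak of 1982 bp whose centre was 2646 bp upstream. It held 3 sites, and the 2 printed are 36 bases apart on the same strand. The domain of Adamts4 spans only 12.1 kb, against a median of 117 kb for members.

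Adamts9, a widely expressed proteoglycanase, had a narrow peak of 219 bp in intron 26, 88464 bp from its 5′ end. This was the only member peak in a gene body but outside that gene's domain, and the nearest coding 5′ end was that of Gm15737 at 14329 bp. Its single site lies in the central 200 bp. The Adamts15 peak was the most distant of all, 442282 bp downstream of the 5′ end and 44313 bp from Snx19, with 1491 bp and 6 sites. Adamts8, beside Adamts15 on chromosome 9, and Adamts20 had no peak.

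Procollagen N-proteinases trim the amino-terminal propeptide of fibrillar procollagens. Of these 3 genes only Adamts2 had a peak (48.4% of all genes did), of 1565 bp in intron 3, 72185 bp from the 5′ end. It held 4 sites on the same strand, of which 3 fall in the printed window with 39 and 7 bases between neighbours. Adamts3 and Adamts14 had none.

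Of the 9 other Adamts genes, 4 had a peak (48.4% of all genes did), and none of these peaks lay in the basal part or the body. Adamts7, which cuts cartilage oligomeric matrix protein, had peaks of 228 and 243 bp at 54629 and 90331 bp downstream, both in introns of Tbc1d2b and both with a central TGGGAA. The Adamts10 peak was 20311 bp upstream, with 622 bp and 1 site, and the Adamts6 peak was 335135 bp downstream, with 871 bp and 1 site. Adamts10 and Adamts6 are related enzymes linked to fibrillin microfibrils. The peak of Adamts18 was 181589 bp upstream, 228 bp wide and without TGGGAA, and 78.5% of it was soft-masked as repeat. Adamts12, Adamts13 (the von Willebrand factor protease), Adamts16, Adamts17 and Adamts19 had no peak.

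Adamts-like genes had peaks in 3 of 5 cases (48.4% of all genes did), including 2 of the 4 genes with a centre within 1 kb. Adamtsl4, whose product binds fibrillin microfibrils, had the most peaks of any member, with 5 in a domain of 78.8 kb. At least 5 peaks were found for 1 of 49 members (2.04%) and for 2.3% of all genes. At least 3 were found for 4 members, Adamtsl4, Mmp14, Timp2 and Timp3 (8.16%, against 8.38% of all genes), shares near the background in both cases.

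The Adamtsl4 peaks were spread over both sides of the gene. The peak at the 5′ end (chr3:95687627-95689795, 2169 bp) was centred 794 bp upstream and held 4 sites. Farther upstream, at 8533 bp, a peak of 440 bp held 3 sites, 2 of them on opposite strands with only 3 bases between, which is the closest pair in any member peak. The peak at 13533 bp upstream had 2026 bp and 2 sites with 19 bases between. On the downstream side, the peak at 12830 bp (1369 bp) had no TGGGAA and the one at 20767 bp (2168 bp) had 4, including a pair with 5 bases between. That last peak was nearer to Mcl1, an anti-apoptotic Bcl2 relative, at 8293 bp.

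Adamtsl5 had a single peak of 3079 bp, centred 619 bp upstream of its 5′ end and also covering it, with 5 sites. Adamtsl1 had a peak of 201 bp, the narrowest of the member peaks, 109192 bp upstream in an intron of Sh3gl2, with 1 central site. Adamtsl2 and Adamtsl3 had none.

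**Figure D3:**
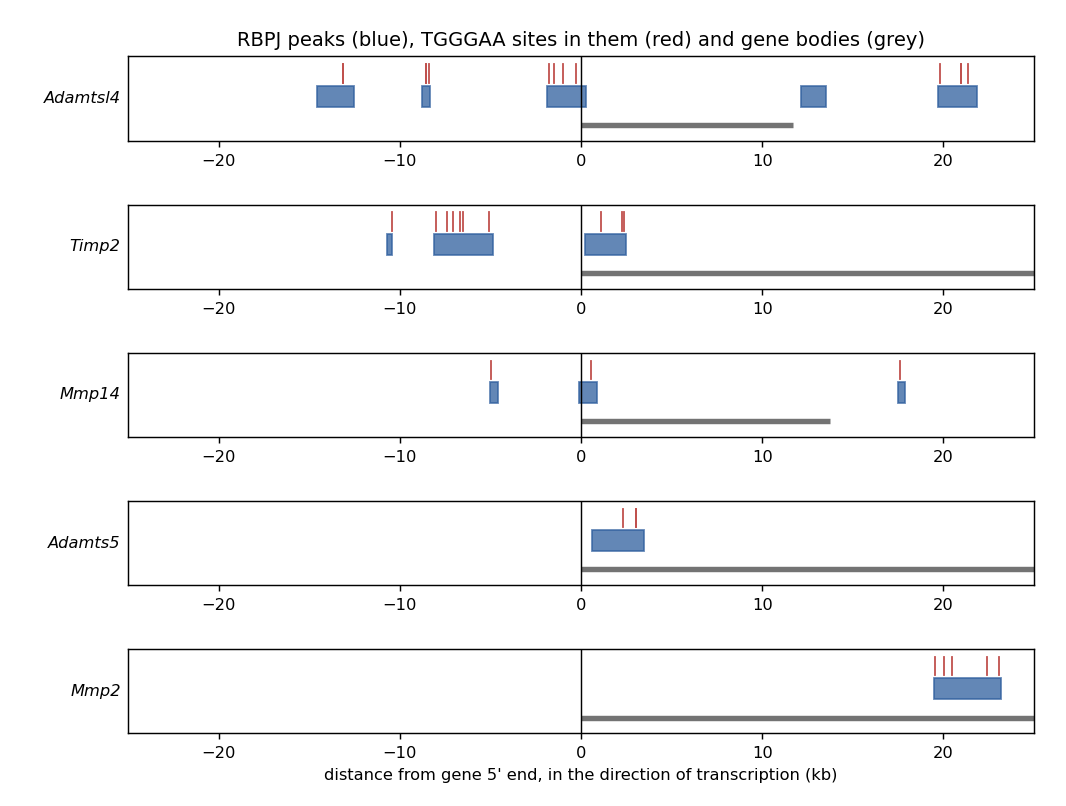
RBPJ peaks (blue), the TGGGAA sites within them (red ticks) and the gene body (grey) within 25 kb of the 5′ end of 5 members; each axis is the distance from the 5′ end in kb, in the direction of transcription. Adamtsl4 has 5 peaks on both sides, Timp2 has 3, Mmp14 has 3, and Mmp2 has 1 wide peak near the end of the gene.

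A peak was found for 6 of 22 Mmp genes, against 48.4% of all genes, and 9 of the others lie in a cluster on chromosome 9. None of the 3 interstitial collagenase genes (Mmp1b, Mmp8 and Mmp13) had one. Of the gelatinases, which cut denatured and basement membrane collagen, Mmp2 had a peak and Mmp9 had none, its nearest peak lying 19984 bp away. The Mmp2 peak (chr8:92846754-92850489) was the widest of all member peaks at 3736 bp and held 5 sites. It lay in intron 11, 21330 bp from the 5′ end of Mmp2 and 6718 bp from that of Lpcat2, a phospholipid-remodelling enzyme gene.

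Membrane-type Mmps had peaks for Mmp14 and Mmp17 and none for Mmp15, Mmp16, Mmp24 or Mmp25, which is 2 of 6 genes against 48.4% of all genes. Mmp14 activates the Mmp2 proenzyme at the cell surface, with Timp2 as a bridge. A peak of 966 bp (chr14:54431515-54432480) covered its 5′ end and was centred 385 bp downstream in intron 1. This was the only member peak centred within 500 bp of the 5′ end. It held 1 site, shown above. The upstream Mmp14 peak, at 4807 bp, was within the basal part but sat on the start of Mrpl52, a mitochondrial ribosomal protein gene, and the downstream one, at 17687 bp, was 14838 bp from Lrp10. Mmp17, a protease held by a lipid anchor, had a peak of 231 bp in intron 1, 1970 bp from the 5′ end, and another of 214 bp, 65727 bp upstream in an intron of Sfswap. Each held 1 central TGGGAA, and the upstream peak also held TGANTCA, the site bound by AP-1.

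Among the 3 stromelysins, Mmp11 had a peak and Mmp3 and Mmp10 had none, where 48.4% of all genes had one. The Mmp11 peak (446 bp) was 604 bp downstream of the annotated 5′ end and held no TGGGAA. That 5′ end belongs to a longer transcript model. The principal Mmp11 transcript starts at position 75932502 of chromosome 10, outside the peak at 75935670 to 75936115, whose centre fell in the untranslated region of Chchd10. Of the remaining Mmps, Mmp19 had a peak of 546 bp with 3 sites, 11420 bp upstream, and Mmp28 a peak of 698 bp with none, 22372 bp downstream in a coding exon of 1700020L24Rik. Mmp7, Mmp12, Mmp20, Mmp21, Mmp23 and Mmp27 had no peak.

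**Figure D4:**
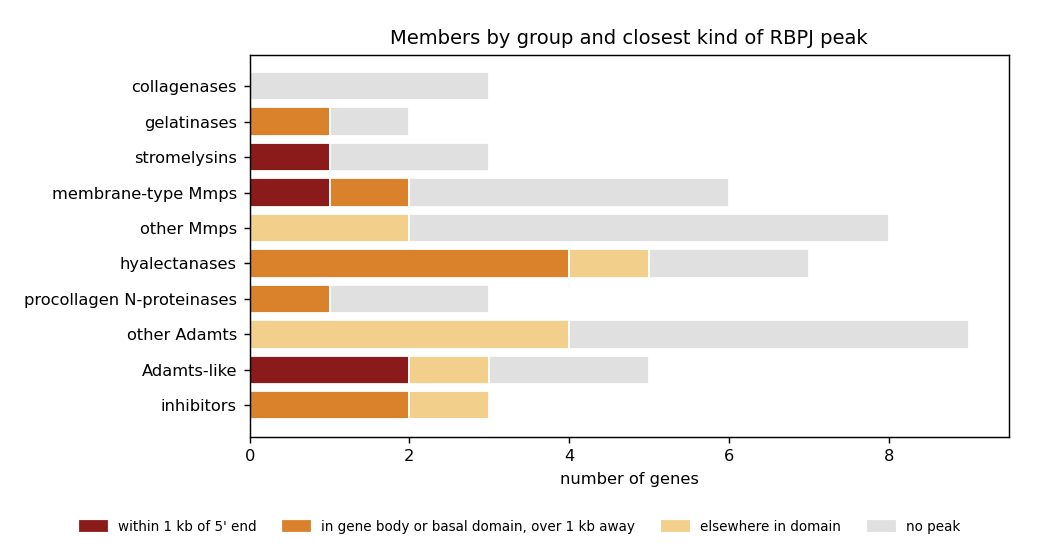
Number of members in each group by the closest kind of RBPJ peak to the gene: centre within 1 kb of the 5′ end, in the gene body or basal part but farther than 1 kb, elsewhere in the domain, or no peak. The 3 inhibitors and 5 of 7 hyalectanases have a peak, and the 3 collagenases have none.

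A single interval accounted for 9 of the 16 Mmp genes without a peak. Mmp13, Mmp12, Mmp1b, Mmp3, Mmp10, Mmp8, Mmp27, Mmp20 and Mmp7 lie together in 427 kb of chromosome 9, from 7272514 to 7699585, and the list held 0 peaks there. The flanking peaks were 627 kb before the first gene and 64.6 kb after the last, the latter at the 5′ end of Tmem123. The gap between their centres was 1120 kb. Neighbouring peaks on the autosomes were a median of 67.8 kb apart, and 418 of 10928 gaps (3.83%) were as long or longer. Since these 9 genes share the gap they do not count as separate observations, and without them 22 of 40 members had a peak, beside 48.4% of all genes. The authors dropped reads with more than 3 matching positions, and the part of near-identical sequence among these genes in the gap was not tested.

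**Figure D5:**
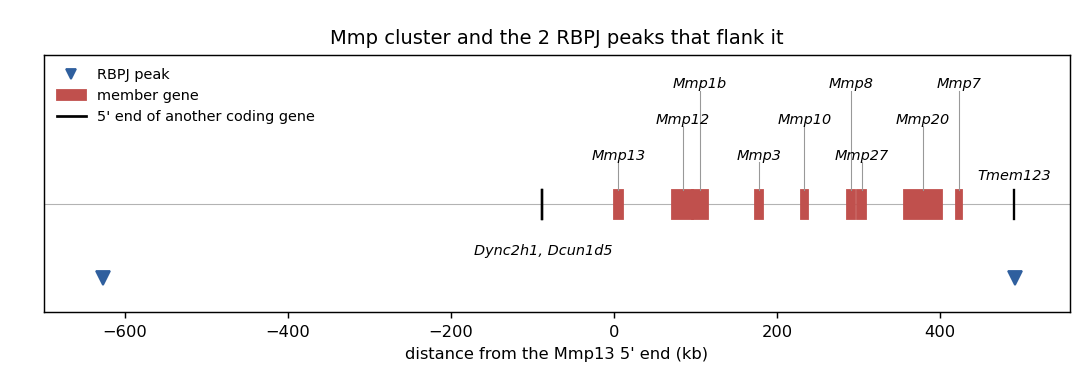
The Mmp genes of chromosome 9 (red boxes, 9 genes in 427 kb), the 5′ ends of 3 other coding genes in the gap (black ticks) and the RBPJ peaks on either side (blue triangles), by distance from the Mmp13 5′ end in kb. No peak lies between the triangles, which are 1120 kb apart.

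Chromosomes 4 and 7 had few peaks at all, with 12.3% of their genes having one, against 55.3% on the other autosomes. Of the 6 members there 1 had a peak (16.7%), and of the 43 elsewhere 21 did (48.8%). Mmp16, Mmp21, Mmp23, Adamts17 and Adamtsl3, which are on these chromosomes, were thus without a peak where most genes were.

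Each of the 3 Timp members had a peak, where 48.4% of all genes did, so that little can be read from so few genes. They made 7 gene-peak pairs, and none of the centres was in the basal part, which held a peak in 28.3% of all genes. Timp2 inhibits Mmp2 and takes part in its activation. Its first peak (chr11:118353240-118355508, 2269 bp, 3 sites) was centred 1366 bp downstream of the annotated 5′ end, in intron 1, and reached the start of the principal transcript at 118355506. A second, of 3229 bp with 6 sites, lay 6471 bp upstream, and a further one, of 291 bp with 1 site, 10559 bp upstream. For all of these, Timp2 had the nearest 5′ end of any coding gene.

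Timp3, which is bound to the matrix and also inhibits aggrecanases, and Timp4 lie within introns of the synapsin genes Syn3 and Syn2. The Timp3 peaks were a peak of 631 bp with 1 site in its intron 2, 39581 bp from the 5′ end, one of 1615 bp with 2 sites 104394 bp upstream, and one of 333 bp with 2 sites 116605 bp downstream. All were inside introns of Syn3, whose own 5′ end was 81879 bp from the last. The single Timp4 peak (chr6:115238451-115238913, 463 bp) was 13523 bp downstream of the 5′ end and outside the gene body, in an intron of Syn2 and of Gm17482. The 5′ end of Gm17482 was nearer, at 11339 bp. This Timp4 peak held 4 TGGGAA sites, 3 of them in the central 200 bp, more than any other member peak there. The printed pair is on opposite strands with 4 bases between.

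Over the 35 member peaks, 30 held TGGGAA somewhere, or 85.7% (69.7 to 95.2%), against 64.9% of all peaks. In the central 200 bp, 15 did, or 42.9% (26.3 to 60.6%), against 25.8%. The longer GTGGGAA, which contains TGGGAA, was found there in 8 of 35 (22.9%, against 9.3% of all peaks). Both strands were searched, and a match describes these letters only. Their position stands beside this share: 27 of 35 (77.1%, 59.9 to 89.6%) were over 1 kb from every protein-coding transcript start, against 50.5% of all peaks. Within such distant peaks TGGGAA was central in 14 of 27 (51.9%, 31.9 to 71.3%), against 35.3%, and anywhere in 24 of 27 (88.9%, 70.8 to 97.6%), against 71.6%. Among distant peaks each member share was above that of the list, but each interval, on 27 peaks, includes the share of the list. The part of position in the shares was not tested further.

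Member peaks had a median width of 631 bp and the whole list one of 690 bp, with quartiles of 352 and 2000 bp and of 382 and 1420 bp. The median number of TGGGAA per kb was 1.84 in member peaks and 1.07 in all peaks, and the median GC content was 53.4% and 55.8%. At least 3 sites were found in 13 of 35 member peaks (37.1%, 21.5 to 55.1%), against 17.5% of all peaks. TGANTCA was central in 5 of 35 (14.3%, 4.81 to 30.3%), against 10.4% of all peaks, which is near the background. By location of the centre, 16 peaks were in introns of any coding gene, 16 outside coding genes, 2 in coding exons and 1 in an untranslated region.

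Genes that act with these proteases were listed from general knowledge: other shedding proteases, the plasminogen system, proprotein convertases, proteoglycan substrates and clearance receptors. Of the 25 genes 16 (64.0%) had a peak in the body or domain, against 48.4% of all genes, and 6 (24%) in the basal part, against 28.3%, which is near the background. The latter were Adam10 (118 bp upstream of the 5′ end), Adam17 (141 bp upstream) and Adam9 (809 bp downstream), which shed membrane proteins, Bsg, an inducer of Mmps (65 bp upstream), Lrp1, the receptor that clears proteases and Timps (557 bp upstream), and Thsd4, an Adamts-like relative (95 bp upstream). Of these 6 peaks nearest the 5′ end, those of Adam17 (2 sites), Adam9, Lrp1 and Thsd4 (1 each) held TGGGAA. No peak was assigned to A2m, Acan, Adam15, Ncan, Pcsk5, Pcsk6, Plaur, Plg or Reck, of which Acan, Pcsk6, Plaur and Reck are on chromosomes 4 and 7.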

How the data were processed

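RBPJ ChIP-seq in RD1 cells was represented by 2 deposited peak files, which were byte-identical. Per the study's methods, the authors used bowtie (options -k 1 -m 3) and GRCm38, took out duplicates, and called peaks in each replicate by MACS2 and PeakRanger. Calls at most 2 kb apart were joined, a region needed at least 3 of the possible calls, and blacklisted regions were dropped. The submitters' processing notes also name FastQC, Picard, SAMtools and deepTools. Each deposited value is a position in bp, the start or the end of a peak, with no score or signal. Merging widens intervals, so a centre need not be a binding site.

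Genes and their 5′ ends were from GENCODE M21 (21938 protein-coding genes for the domains, 20807 on chromosomes 1 to 19), and 0 peaks ran past a chromosome end of GRCm38. TGGGAA and the other motifs named in the text were searched on both strands. Members, groups and lists were chosen with earlier results of these data known. Named were members with a peak in the basal part or body, the 5 with most peaks, all Timps and, by name, members without a peak; other peaks were chosen after their values were seen. Domain assignment and motif search were tested on simulated data. Alternatives covered domain size, overlap, peak width, start sites and motif windows. Python 3.11.15, numpy 2.4.6, pandas 2.3.3, pysam 0.24.0, scipy 1.17.1 and matplotlib 3.10.9 were used. A result that needs 1 further gene is not reported here.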

Additional observations from a re-analysis of the deposited data

How the results depend on the processing

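Of 38 alternatives, 25 kept their count within 1.5 times the value reported, or their motif share within its interval. The 25 include alternatives that could not change, named below, so this count says little about how stable the results are. The members with a peak in body or domain fell from 22 to 13 with the basal part or gene body, 10 with the body alone and 14 with the nearest 5′ end alone, where all genes stood at 36.5%, 26.3% and 36.5%. Peaks of at least 500 bp left 20 of 35 member peaks. Counting any overlap raised the members with a basal peak from 5 to 8, with all genes at 30.2%. For the 1 kb limit, the count of 4 became 1 at 500 bp, 7 at 2 kb and 7 with any overlap, with all genes at 21%, 28.5% and 28.4%, the last chosen after seeing the data. The share of member peaks with TGGGAA (42.9%) was 25.7% in the central 100 bp, 85.7% in the whole peak, 22.9% for GTGGGAA, 17.1% for TGAGAA and 25% in peaks of at least 500 bp, against 15.4%, 64.9%, 9.3%, 14.4% and 17.2% of all such peaks. Leaving out either replicate gave the values reported, as the files are identical. For the same reason, asking for a reciprocal overlap of 50% with the other file could not change the number of peaks. Leaving out the Mmp cluster and limiting motif counts to distant peaks were also chosen after seeing the data. The cluster held 0 peaks, so leaving it out could not change the counts of members with a peak or of member peaks. No paired analysis was possible because no test was made and the replicate files do not differ. Without scores or read depth, weak sites cannot be told from strong ones.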
